A study of Mus musculus with 115 samples.

Results

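Mouse mitochondria carry their own small circular genome, and several stretches of it also lie in the nuclear chromosomes as copies. Of the 45699 genes in the expression table, 7 were chosen by how TPM, the deposited measure of expression, was divided between a gene and its copy in each library. They were 6 mitochondrially encoded mRNAs (mt-Co1, mt-Co2, mt-Co3, mt-Atp6, mt-Atp8 and mt-Cytb) and Gm28437, a nuclear pseudogene copied from mt-Co3. Because these values chose the genes, the levels and shares themselves are given as descriptions with no test, and tests are of their relation to other genes. The RNA came from prostates of (TRAMP x WSB/EiJ) F2 males, all positive for the TRAMP transgene. In TRAMP mice the probasin promoter drives SV40 T antigen in the prostate epithelium, and WSB/EiJ is an inbred strain of wild origin. C57BL/6J TRAMP females were crossed with WSB/EiJ males, and transgene-positive F1 females with transgene-negative F1 males, so the maternal line of every F2 mouse goes back to C57BL/6J. RNA came from the ventral lobe where a prostate was small, and which libraries these were was not used here. The libraries, each titled with a different number, were taken as separate mice. They form 1 group without a control, which expression separates into 79 and 36. Neither the age nor the tumor burden of each mouse was used here. The tissue was bulk, and fewer cells of a type cannot be told apart from less RNA per cell.

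The mitochondrial genome encodes 13 proteins, all subunits of the respiratory chain or of ATP synthase, and the rest of these complexes is encoded in the nucleus. mt-Co1, mt-Co2 and mt-Co3 form the catalytic core of cytochrome c oxidase, which passes electrons to oxygen. mt-Atp6 and mt-Atp8 are membrane subunits of ATP synthase, and mt-Cytb is the mitochondrial subunit of the cytochrome bc1 complex. The mRNAs of the heavy strand are cut from long shared transcripts, so their levels differ through processing and decay as well as synthesis. A nuclear copy of mitochondrial DNA, often called a NUMT, is usually not translated into a working protein, because the mitochondrial genetic code differs from the nuclear one.

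On GRCm38 the 6 mRNAs lie on the plus strand of the mitochondrial chromosome, each as a single protein-coding exon with no intron. mt-Co1 (ENSMUSG00000064351) spans MT:5328-6872, mt-Co2 (ENSMUSG00000064354) MT:7013-7696, mt-Atp8 (ENSMUSG00000064356) MT:7766-7969, mt-Atp6 (ENSMUSG00000064357) MT:7927-8607, mt-Co3 (ENSMUSG00000064358) MT:8607-9390 and mt-Cytb (ENSMUSG00000064370) MT:14145-15288. mt-Atp8 and mt-Atp6 share 43 bases, and mt-Atp6 and mt-Co3 share 1 base. Nuclear copies were sought by alignment of the reference transcripts, and a gene counted as a copy at 95% identity or more over at least 80% of the shorter sequence. The search found 11 copies, of which 7 form a cluster of 4663 bases on the minus strand of chromosome 1, chr1:24611535-24616197. In this cluster Gm28437 (ENSMUSG00000101111, chr1:24613189-24613971) matches mt-Co3, Gm10925 (chr1:24613974-24614651) matches mt-Atp6, Gm28661 (chr1:24614885-24615565) matches mt-Co2 and Gm29216 (chr1:24615706-24616197) matches the end of mt-Co1. The cluster also holds Gm28438, Gm10222 and Gm28439, which match mt-Nd3, mt-Nd4l and mt-Nd4. The other 4 copies lie on chromosomes 2 and 13. mt-Atp8 and mt-Cytb had no annotated copy by this rule, although Gm11410, a copy of mt-Cytb at 92.9% identity, lay outside the threshold. Nuclear sequence without an annotated gene was not searched, and this includes the stretch between Gm28661 and Gm10925. mt-Atp8 lies between mt-Co2 and mt-Atp6, and the 43 bases that it shares with mt-Atp6 are within the match of Gm10925. The copy of mt-Nd5, Gm4076, was just inside it at 95.2%, and a copy of mt-Nd6, Gm11408, was just outside at 93.6%.

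The ends of these pairs are shown, because the annotated transcripts of each gene and its copy differ only there. As annotated, Gm28437 carries 783 of the 784 bases of mt-Co3 at 100% identity. Gm28661 carries 681 of 684 bases of mt-Co2 at 100% and Gm10925 carries 678 of 681 bases of mt-Atp6 at 100%. Each pair is printed 5′ to 3′ on the strand of the gene from the transcripts of GENCODE M21 on GRCm38. Capitals mark bases past the annotated end of the copy, and the nuclear sequence beyond that end was not compared.
mt-Co3 745 to 784: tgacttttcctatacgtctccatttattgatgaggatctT
Gm28437 745 to 783: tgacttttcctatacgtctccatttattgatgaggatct
mt-Co2 645 to 684: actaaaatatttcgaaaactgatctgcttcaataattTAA
Gm28661 645 to 681: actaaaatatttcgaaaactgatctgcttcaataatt
mt-Atp6 642 to 681: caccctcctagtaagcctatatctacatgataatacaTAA
Gm10925 642 to 678: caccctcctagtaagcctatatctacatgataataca

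mt-Co1 has a copy of another kind. Gm29216 is 492 bases long and aligned over 483 bases at 99.8% identity, with the single substitution A1066T, counted from the first base of mt-Co1. The start of that match is shown with the substitution in capitals. The first 9 bases of Gm29216 were outside the alignment.
mt-Co1 1054 to 1106: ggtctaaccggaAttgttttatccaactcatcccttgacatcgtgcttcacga
Gm29216 1 to 53: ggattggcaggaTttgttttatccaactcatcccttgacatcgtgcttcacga
The second copy of mt-Co1, Gm13340 (chr2:22588103-22589647), covers all 1545 bases at 97.6% identity with 37 mismatches. It is shown over 120 bases where 6 substitutions (T1179C, G1180A, C1209T, A1251G, A1260G and G1293A) stand in capitals, and it serves as the contrast of a copy whose reads do differ from those of its gene.
mt-Co1 1174 to 1293: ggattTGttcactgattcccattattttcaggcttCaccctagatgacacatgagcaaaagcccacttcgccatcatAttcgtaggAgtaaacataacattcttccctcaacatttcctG
Gm13340 1174 to 1293: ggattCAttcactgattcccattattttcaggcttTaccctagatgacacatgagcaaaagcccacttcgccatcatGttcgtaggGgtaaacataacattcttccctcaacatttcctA

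Where gene and copy are identical, a read from either has the same letters. The division of reads between mt-Co2, mt-Co3 or mt-Atp6 and its chromosome 1 copy was therefore an estimate by RSEM, the program with which the authors quantified expression, and both values of such a pair are uncertain. The sum of a pair does not depend on that division except through the transcript lengths. All levels are in TPM, which are scaled for transcript length and to the same total in every library, and which hold no record of sequencing depth.

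Before the members, the libraries are described. Between 10358 and 15824 genes reached 1 TPM in a library, and the 20 genes with the largest share held from 48.9% to 81.8% of all TPM. The parts of 79 and 36 libraries are those of the first principal component, and relations between genes were computed within each part. Library W4078 stood apart, with the highest level of mt-Co1, mt-Atp8, mt-Cytb and Gm28437 among others, and W1154 had the lowest level of mt-Co1, mt-Atp8 and mt-Cytb. Of 8 prostate luminal markers, Tgm4 had a median of 2963 TPM and Krt18 of 298 TPM, while Pbsn reached 1 TPM in 46 libraries. Of the neuroendocrine markers, Chga reached 1 TPM in 42 libraries and 479 TPM in the highest. The 15 mitochondrial rRNA and mRNA genes together held a median of 0.392% of TPM (from 0.194% to 2.26%), and the 7 copies on chromosome 1 held 0.718% (from 0.337% to 4.84%). All 22 mitochondrial tRNA genes are listed at 0.

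Of the cytochrome c oxidase mRNAs, mt-Co1 was the one listed at a high level under its own name. Its TPM was 587 in the lowest library, 1652 at the median and 9777 in W4078, with 3477 in the next highest, and it ranked 25 among all genes by mean TPM. mt-Co2 ran from 0 to 56.5 TPM with a median of 5.87, and was listed at 0 in 44 libraries. mt-Co3 ran from 0 to 120 TPM with a median of 21.3. It was under 0.1 TPM in 30 libraries and at least 11.7 TPM in every other library, so it was either absent from the table or present at a moderate level. The copies had the opposite pattern. Gm28437, the mt-Co3 copy, ran from 1611 to 18441 TPM with a median of 3147 and ranked 11 among all genes by mean TPM. Gm28661, the mt-Co2 copy, ran from 359 to 5433 TPM with a median of 975. Gm29216, the partial mt-Co1 copy, had the widest range of the 3, from 8.87 to 8734 TPM with a median of 734. In no library was Gm28437 lower than mt-Co3.

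The ATP synthase and bc1 mRNAs differed by whether a copy of them is annotated. mt-Atp8, which has none by the rule, ran from 87.3 to 2522 TPM with a median of 484, and was above 0 in every library. mt-Atp6, which overlaps it and has a copy, ran from 0 to 374 TPM with a median of 29.6 and was at 0 in 2 libraries. Its copy Gm10925 ran from 123 to 2093 TPM with a median of 397. mt-Cytb, the bc1 subunit, ran from 35.3 to 621 TPM with a median of 119. Among the copies of the neighbouring mt-Nd genes, Gm28438 had a median of 1950 TPM and Gm10222 of 34.5 TPM, whereas Gm28439, which matches part of mt-Nd4, was listed at 0 in every library. The copies on chromosomes 2 and 13 were at most 0.36 TPM in any library.

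**Figure D1:**
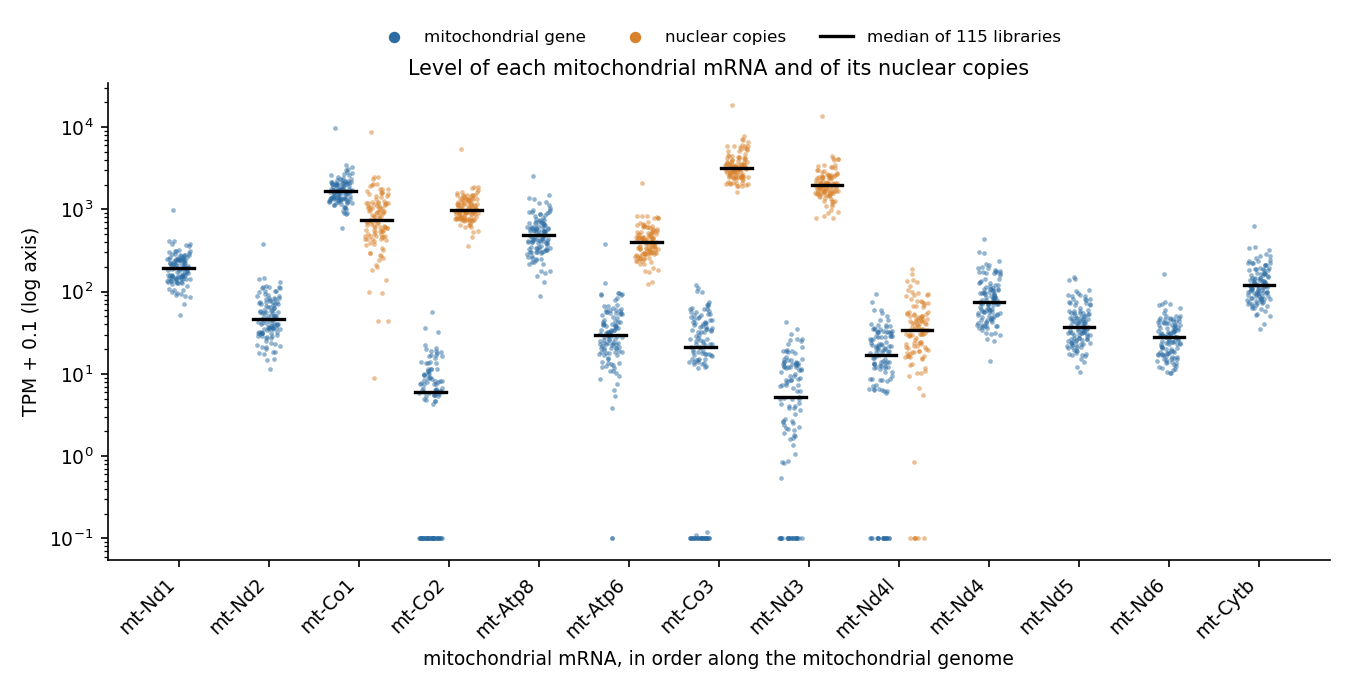
TPM + 0.1 per library on a log axis for the 13 mitochondrial mRNAs (blue) and the summed nuclear copies of each (orange), each point 1 library and each line the median, with libraries at 0 drawn at 0.1. The copy of mt-Co3, Gm28437, stays between 1611 and 18441 TPM, whereas mt-Co3 is at 0 in 28 libraries and at most 120 TPM in the others.

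The nuclear share of a pair is the TPM of the copies as a percent of gene plus copies. For mt-Co3 it was 95.4% in the lowest library and 99.4% at the median, and it was 100% in the 28 libraries with mt-Co3 at 0. For mt-Co2 it was 94.6% in the lowest and 99.4% at the median, with the 44 libraries without mt-Co2 at 100%. For mt-Atp6 the share ran from 81% to 100% with a median of 92.6%. These 3 pairs lay above 80% in every library. mt-Co1 differed from them, with a share of 0.685% in W5003, 31% at the median and 55% in W4182, and with the middle 50% of libraries between 24.2% and 38.4%. In 5 libraries the partial copy of mt-Co1 was listed above mt-Co1 itself. Since the copy is shorter than the gene, the same share in TPM times length was 12.5% at the median. Over all 13 mRNAs and their copies, the chromosome 1 cluster took 73.6% of the TPM, from 63.1% to 80.1%.

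**Figure D2:**
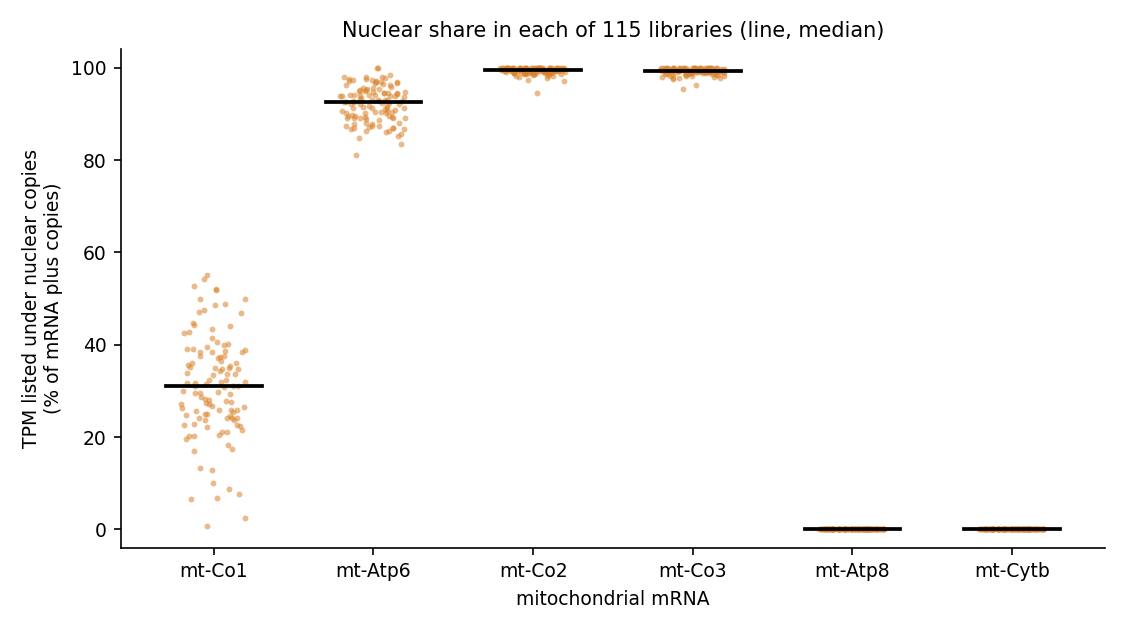
Nuclear share in percent of gene plus copies for the 6 mitochondrial mRNAs, each point 1 library. mt-Co2, mt-Co3 and mt-Atp6 lie above 80% in every library, and mt-Co1 spreads from 0.685% to 55%. mt-Atp8 and mt-Cytb, with no annotated copy by the rule, are at 0.

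Adding the copies changed the order of the mRNAs. Alone, mt-Co1 was followed by mt-Atp8 in every library, and mt-Co3 and mt-Co2 took places 10 and 12 of 13 by median. Summed with the copies, mt-Co3 came first at 3175 TPM, ahead of mt-Co1 at 2379 TPM in 92 libraries of both parts together. mt-Nd3 followed at 1959 TPM, below mt-Co1 in 91 libraries, and then mt-Co2 at 984 TPM, with mt-Nd3 the higher of the 2 in most libraries. mt-Atp8 at 484 TPM and mt-Atp6 at 416 TPM were the neighbours among the members whose order was least fixed, with mt-Atp8 the higher in 79 libraries counted over both parts. mt-Cytb came last of the 6 at 119 TPM, below mt-Atp6 in every library. The median of the sum was 168 times that of mt-Co2 alone, 149 times for mt-Co3, 14.1 times for mt-Atp6 and 1.44 times for mt-Co1.

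The libraries near 0 were compared between genes. mt-Co2 and mt-Co3 were both under 0.1 TPM in 12 libraries, which is 27.3% of the 44 libraries without mt-Co2 and 40% of the 30 without mt-Co3. Over all libraries 26.1% were without mt-Co3 and 38.3% without mt-Co2, close to those shares. Of mt-Co2, mt-Co3, mt-Atp6, mt-Nd3 and mt-Nd4l, none was under 0.1 TPM in 39 libraries, 1 was in 44, 2 were in 23, 3 were in 8 and 4 were in 1. mt-Nd4l and its copy Gm10222 were never both under 0.1 TPM in the same library.

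Variation over libraries was far smaller for the sums. On log2(TPM + 1), the SD over all libraries was 2.31 for mt-Co3 alone and 0.52 with its copy, 1.75 for mt-Co2 alone and 0.49 with its copies, and 1.17 for mt-Atp6 alone and 0.62 with its copy. mt-Co1 went the other way, from 0.50 alone to 0.61 with its copies. Its sum depends more on the division of reads, since Gm29216 has 492 bases and mt-Co1 1545. mt-Atp8 and mt-Cytb had SDs of 0.78 and 0.69.

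A ratio of genes within a library is free of the scaling between libraries, so each member was also divided by the summed TPM of mt-Nd1, mt-Nd2, mt-Nd4 and mt-Nd5 with their copies. These 4 mRNAs encode subunits of complex I, are not members and had almost no TPM in copies, and their sum, the mt-Nd level, had a median of 350 TPM and ran from 88.6 to 1953. The ratio of mt-Cytb was the steadiest, at 0.350 for the median library and from 0.239 to 0.420, a 1.76-fold range. mt-Atp6 with its copy ran from 0.768 to 1.68, a 2.19-fold range, mt-Atp8 from 0.936 to 2.12 (2.26-fold) and mt-Co2 with its copies from 1.54 to 4.24 (2.76-fold). The ratio of mt-Co1 alone ranged 5.19-fold and with its copies 7.0-fold. mt-Co3 with its copy had the widest range of the members, from 2.66 to 22.3 (8.38-fold). Without their copies, the log2 ratios of mt-Co2, mt-Atp6 and mt-Co3 had SDs of 3.22, 1.35 and 3.61 with 0.1 TPM added, against 0.37, 0.20 and 0.67 for the sums.

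The same order appeared in how closely each member followed the mt-Nd level. On log2(TPM + 1) in the 79 libraries, mt-Cytb had r = 0.989 and rho = 0.986 (permutation p = 1e-05 for both, the smallest that 100000 permutations can give, adjusted p = 2.8e-05 over 42 relations), and r = 0.987 once W4078 and W1154, the 2 farthest from the median mt-Nd level, were left out. mt-Atp6 with its copy had r = 0.970 and rho = 0.964, mt-Atp8 r = 0.953 and rho = 0.939, and mt-Co2 with its copies r = 0.876 and rho = 0.855, with the same permutation p and adjusted p for each and r of 0.963, 0.942 and 0.844 without those libraries. mt-Co1 with its copies had r = 0.663 and rho = 0.573 with that same permutation p and adjusted p, and r = 0.542 without W4078 and W1154. For mt-Co3 with its copy they were r = 0.580 and rho = 0.504 with the same permutation p and adjusted p, and r = 0.455 without those libraries. Among the 36 libraries mt-Cytb had r = 0.957 and rho = 0.942 (permutation p = 1e-05, adjusted p = 2.8e-05; r = 0.945 without the 2 farthest), and mt-Co2 with its copies r = 0.837 and rho = 0.820 (the same p; r = 0.810). There mt-Co3 with its copy had r = -0.19 and rho = -0.24 (permutation p = 0.269 and 0.164, adjusted p = 0.342; r = -0.22 without the 2 farthest), so a relation of mt-Co3 to the mt-Nd level was found in the larger part and not in the smaller. In the 36 mt-Co1 with its copies had r = 0.402 and rho = 0.418 (permutation p = 0.0146 and 0.0119, adjusted p = 0.0267), and r = 0.360 without the 2 farthest. The differences between the parts were not tested.

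**Figure D3:**
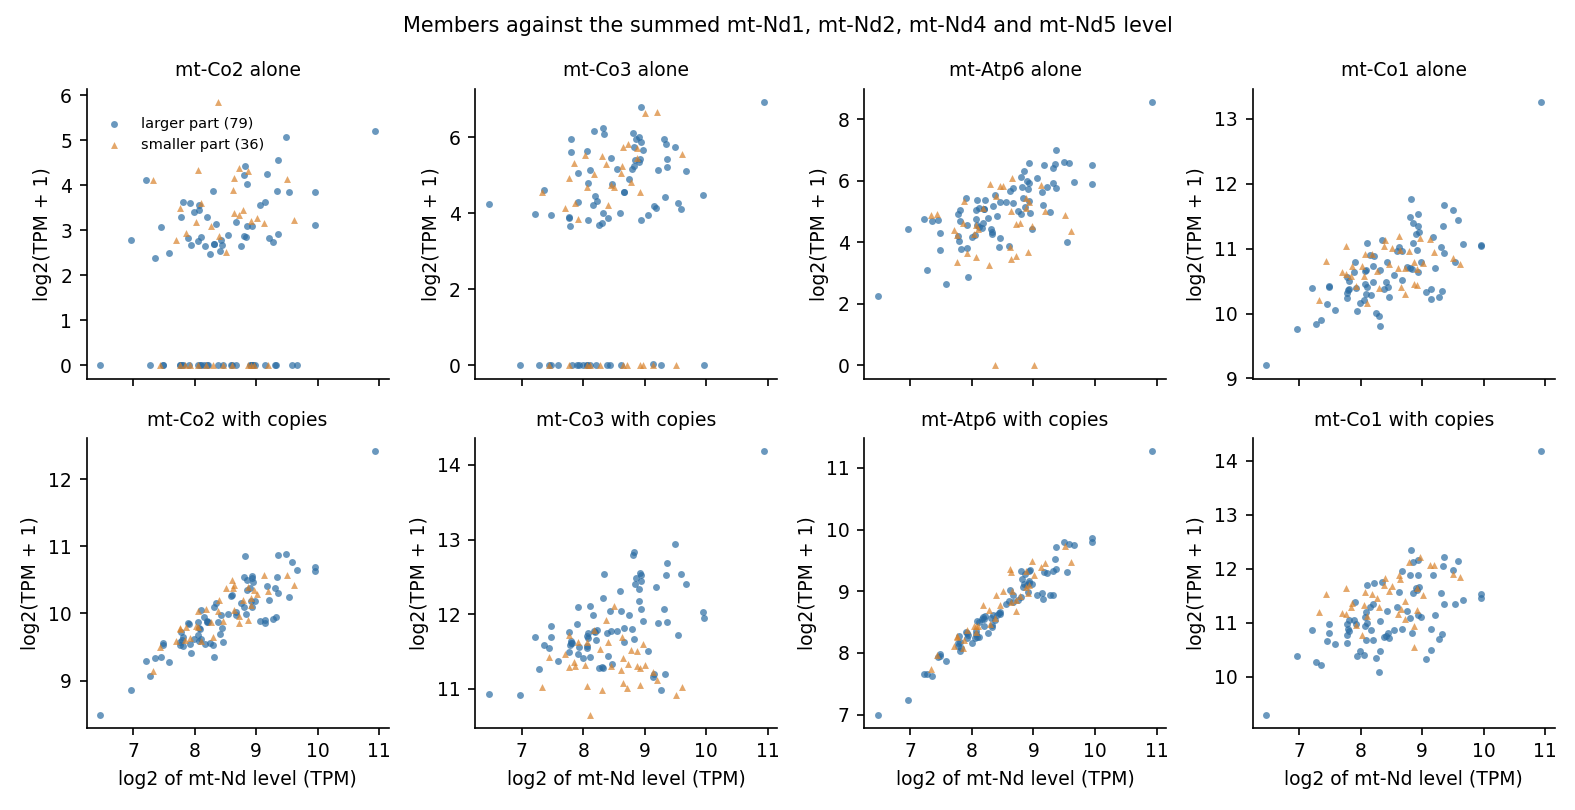
log2(TPM + 1) of mt-Co2, mt-Co3, mt-Atp6 and mt-Co1 against the log2 mt-Nd level, alone (upper row) and summed with copies (lower row), each point 1 library of the larger part of 79 (circles) or the smaller part of 36 (triangles). The sum for mt-Atp6 follows a line (r = 0.970 in the 79), while mt-Co3 alone falls into libraries near 0 and libraries well above it.

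Taken alone, the genes with identical copies followed the mt-Nd level less closely. In the 79 libraries mt-Atp6 alone had r = 0.765 and rho = 0.723 (permutation p = 1e-05, adjusted p = 2.8e-05; r = 0.694 without W4078 and W1154), mt-Co3 alone r = 0.351 and rho = 0.416 (permutation p = 0.00149 and 0.00014, adjusted p = 0.00329; r = 0.345), and mt-Co2 alone r = 0.230 and rho = 0.222 (permutation p = 0.0422 and 0.0498, adjusted p = 0.0682; r = 0.132), the last of which did not pass. In the 36 libraries mt-Atp6 alone had r = 0.014 and rho = 0.161 (permutation p = 0.938 and 0.349, adjusted p = 0.961; r = 0.041 without the 2 farthest), against r = 0.940 for its sum with Gm10925. mt-Co1 alone had r = 0.719 and rho = 0.639 in the 79 (permutation p = 1e-05, adjusted p = 2.8e-05). In the 36 mt-Co1 alone had r = 0.283 and rho = 0.277 (permutation p = 0.0949 and 0.101, adjusted p = 0.142) and did not pass.

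Among the sums of all 13 mRNAs, mt-Co1, mt-Co2, mt-Co3 and mt-Nd3 varied with each other and, apart from mt-Co2, less with the rest, a set chosen after their values were seen. These r values are descriptions over libraries that share their scaling. In the 79 libraries the 6 pairs within the 4 had r from 0.803 to 0.946 (median 0.884), the 36 pairs within the other 9 from 0.885 to 0.987 (median 0.945) and the 36 pairs between them from 0.278 to 0.944 (median 0.618). After median-of-ratios scaling, which sets libraries to a common level by the median gene, the medians were 0.761, 0.934 and 0.481. The 4 no longer stood together in the 36 libraries, with r from 0.10 to 0.654 within them (0.166 to 0.729 after median-of-ratios scaling) and 0.690 to 0.967 within the other 9.

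**Figure D4:**
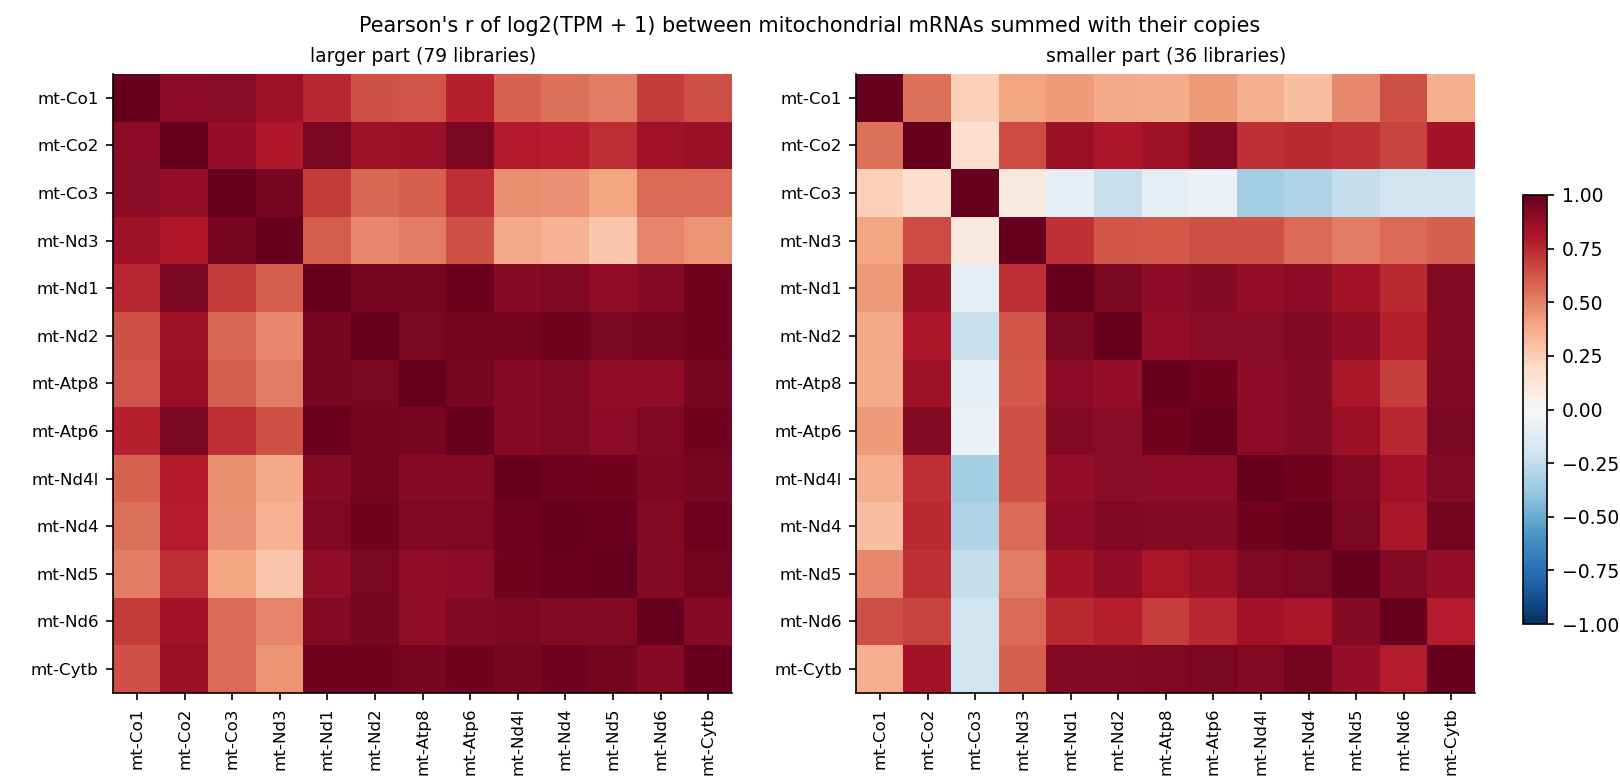
Pearson's r between the 13 mitochondrial mRNAs summed with their copies, on log2(TPM + 1), in the larger part of 79 and the smaller part of 36 libraries. In the 79, r within mt-Co1, mt-Co2, mt-Co3 and mt-Nd3 is 0.803 to 0.946, and in the 36 it is 0.10 to 0.654.

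The whole table was then fitted to each level with limma, as a slope of log2(TPM + 1) per doubling of the level in the 79 libraries, with Benjamini-Hochberg adjustment over all genes with a mean of 1 TPM or more. With the mt-Nd level, 6306 of 13393 genes rose (47.1%) and 0.784% fell. The slopes of the members were 0.97 ± 0.02 (SE) for mt-Cytb, 1.06 ± 0.04 for mt-Atp8, 0.86 ± 0.03 for mt-Atp6 with its copy, 0.63 ± 0.04 for mt-Co2 with its copies and 0.40 ± 0.07 for mt-Co3 with its copy, against a median of 0.14 over all genes. The highest adjusted p among these 5 was 6.41e-07, for mt-Co3 with its copy. mt-Co1 had slopes of 0.55 ± 0.06 alone and 0.59 ± 0.08 with its copies. For the 36 libraries the slope of mt-Co3 with its copy was -0.10 and that of Gm28437 -0.11. The 10 nuclear genes with the largest t, led by R3hdm2, Plekhm1, Wipf2, Tns2 and Pdk2, had slopes from 0.38 to 0.49. All 10 also passed after median-of-ratios scaling of the same libraries, where 13.7% of all genes rose. On deposited TPM in the 36 libraries the slopes of these 10 ran from -0.32 to 0.57, so they did not all keep their direction. Pdk2, a kinase that shuts down pyruvate dehydrogenase, had slopes of 0.46 ± 0.04 in the 79 libraries and -0.32 in the 36.

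Scaling decided much of that count. After median-of-ratios scaling 1853 of 13494 genes rose with the mt-Nd level (13.7%) and 3241 fell (24%), and the median slope moved from 0.14 to -0.04. On this scale few nuclear partners of the mitochondrial subunits passed in the 79 libraries. None of 15 nuclear cytochrome c oxidase subunits rose and 1 fell, 1 of 17 ATP synthase subunits rose (Atp5d) and 4 fell, and none of 9 bc1 subunits rose and 1 fell. Without the 2 libraries farthest from the median, W4078 and W4426, 6 of 15, 11 of 17 and 5 of 9 fell, beside 28.4% of all genes. In the 36 libraries 12 of 14, 15 of 17 and 9 of 9 fell, beside 32.6% of all genes. Of 73 cytosolic ribosomal protein genes, 64 fell in the 36 libraries. In the 79 libraries 50 of these 73 fell, beside 24% of all genes, and 54 fell without W4078 and W4426.

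The Gm28437 level gave another picture, in a fit added after the data were seen. Gm28437 stands here for the mt-Co3 sequence as a whole, since it held at least 95.4% of the pair in every library. On deposited TPM, 11808 of 13393 genes rose with it (88.2%) and 37 fell (0.276%), with a median slope of 0.41, so almost the whole table moved together. Gm28437 was lower where the 20 largest genes took more of the TPM, with r = -0.74 and rho = -0.73 in the 79 libraries (permutation p = 1e-05, adjusted p = 2.8e-05; r = -0.72 without the 2 farthest) and r = -0.61 and rho = -0.62 in the 36 (permutation p = 0.0001 and 0.00011, adjusted p = 0.000263; r = -0.52). Gm28437 is itself 1 of those 20 genes, as is Gm28438, and the TPM of a library has a fixed total. These r values and p-values are therefore a description of the scaling and no test of a relation of Gm28437. Median-of-ratios scaling left 1152 of 13494 genes rising (8.54%) and 393 falling (2.91%), with a median slope of 0.02.

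On that scale most listed nuclear subunits of cytochrome c oxidase, ATP synthase and bc1 rose with Gm28437. Of the cytochrome c oxidase subunits, 12 of 15 rose (median slope 0.59), of the ATP synthase subunits 16 of 17 (0.42) and of the bc1 subunits 9 of 9 (0.59), where 8.54% of all genes rose, and none of them fell. Cyc1, which carries the haem of cytochrome c1, had a slope of 0.69 (adjusted p = 1.19e-12). Cox5a, an oxidase subunit, had 0.67 (adjusted p = 1.43e-09) and Atp5b, the catalytic beta subunit of ATP synthase, 0.63. Cox7a1 and Cox8b, oxidase subunits known from heart and skeletal muscle, had larger slopes of 1.97 and 2.74, and Cox6a2, another muscle form, had 0.59 with adjusted p = 0.229 and did not pass. In the 36 libraries 13 of 14, 16 of 17 and 9 of 9 rose with median slopes of 0.86, 0.89 and 0.86, beside 12.6% of all genes rising, 8.13% falling and a median of 0.15. Without W4078 and W4426 the counts in the 79 were 13 of 15, 15 of 17 and 9 of 9, beside 8.18% of all genes rising and 3.73% falling.

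Genes that build or maintain the mitochondrial system gave lower counts, which were not tested against those of the subunits. Of 19 cytochrome c oxidase assembly factors 10 rose (median slope 0.24), of 23 genes of mitochondrial RNA synthesis and processing 6 rose (0.11), of 9 biogenesis regulators 2 rose (0.04) and of 12 genes of mitochondrial DNA maintenance none rose (0.02), all beside 8.54% of all genes. None of the 8 luminal markers rose or fell. Of 6 adipocyte markers 5 rose, with a median slope of 1.81, and 1 rose without W4078 and W4426. None of 6 skeletal muscle markers passed. The summed TPM of those adipocyte markers ran from 0.48 to 2013 in the 79 libraries (r = 0.568 with Gm28437) and that of the muscle markers from 1.21 to 2812 (r = 0.479). In the 36 libraries the sums ran from 0.1 to 319 and from 1.25 to 382. There 12.6% of all genes rose with Gm28437 and 8.13% fell, and 3 of 3 adipocyte and 3 of 5 muscle markers rose. Of 73 cytosolic ribosomal protein genes 63 rose in the 36, with a median slope of 0.93. In the larger part 1 of 73 rose, and 25 of 73 without W4078 and W4426. The part of these cells, and of RNA from them, in the relation of Gm28437 to the subunit genes was not tested.

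**Figure D5:**
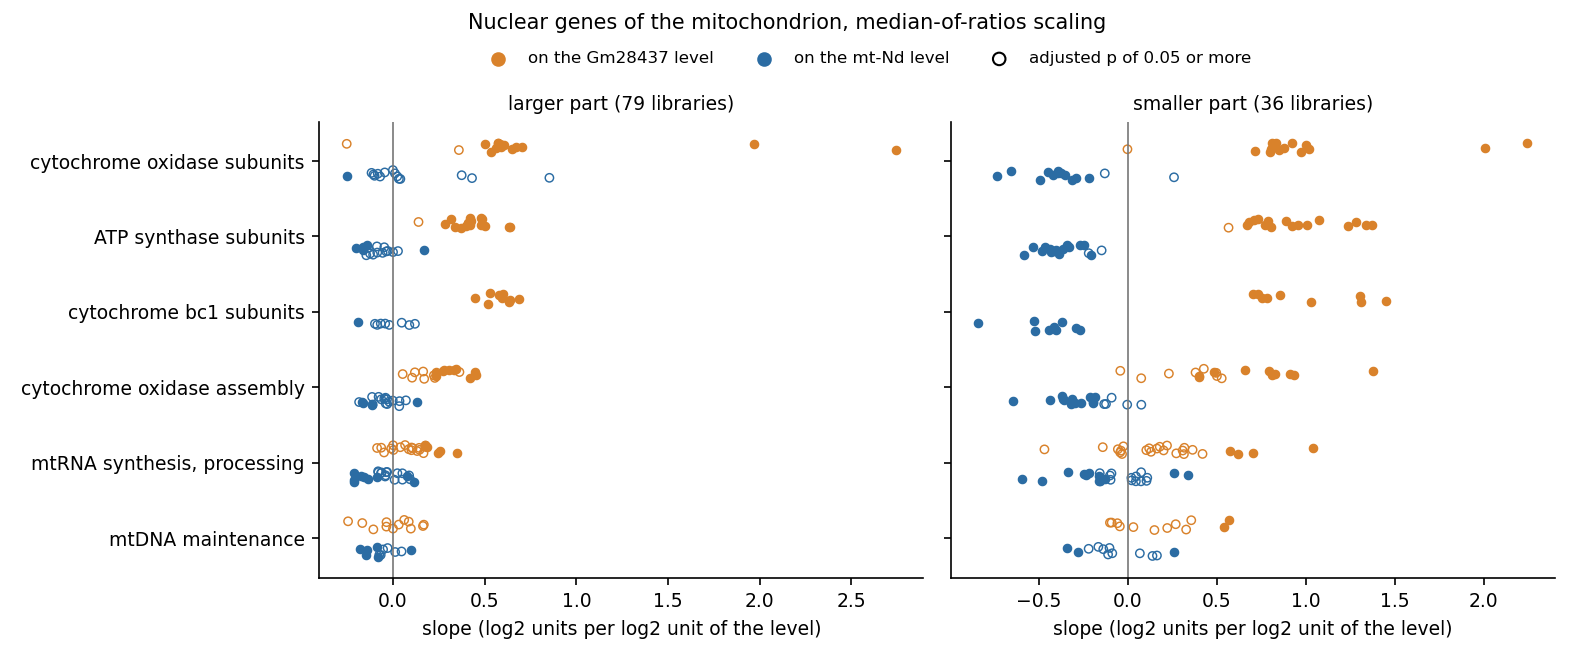
Slopes of log2 expression per log2 unit of the Gm28437 level (orange) and of the mt-Nd level (blue) after median-of-ratios scaling in the 79 and in the 36 libraries, each point 1 gene of the list and open where the adjusted p was 0.05 or more. With Gm28437 the cytochrome c oxidase, ATP synthase and bc1 subunits have medians of 0.59, 0.42 and 0.59 in the 79 libraries, against 0.02 over all genes.

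The genes most like Gm28437 were sought by r over the 79 libraries. On deposited TPM the copy Gm28438 (0.945) and mt-Co1 (0.936) were closest, followed by Decr1 (0.903), Cs (0.902), Hadh (0.898) and Dlat (0.891), where the median over 13413 genes was 0.488. Decr1, Hadh and Hadha act in fatty acid oxidation, Cs is citrate synthase, Dlat is a subunit of pyruvate dehydrogenase, Sucla2 acts in the citric acid cycle and Etfdh passes electrons from fatty acid oxidation to the chain. The 10 nuclear genes with the largest t in the fit, among them these 7 with Letmd1 and Gbe1, had slopes from 0.93 to 1.13. All 10 passed after median-of-ratios scaling of the same 79 libraries, where 8.54% of all genes rose. Their slopes were then from 0.65 to 0.87, with the lowest adjusted p, 8.27e-15, for Cs. On deposited TPM in the 36 libraries 7 of 10 passed, where 47.1% of all genes did and 82.7% of those calls rose. After median-of-ratios scaling Gm28438 (0.901) and mt-Co1 (0.864) were again closest, then Mpc1 (0.805), a carrier of pyruvate into mitochondria, and Cs (0.793), against a median of 0.026.

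The nuclear share of mt-Co1 had the widest range among the member mRNAs, and it was fitted as the log2 ratio of copies to gene. On deposited TPM 7563 of 13393 genes rose with it (56.5%) and 44 fell (0.329%), with slopes from 0.21 to 0.42 for the 10 genes with the largest t, among them Dpp4, Rmdn1, Stradb and Pts. After median-of-ratios scaling 1 gene rose and 1 fell (0.00741% each), and in the 36 libraries 1 gene passed on deposited TPM, so the relation did not hold with either. Single libraries moved the count on deposited TPM in both directions. With all 79 libraries 7607 genes passed, against 4909 without W1154 and 8729 without W5003, the library farthest from the median.

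The nuclear share of mt-Co3 was related to none of 13393 genes, mitochondrial genes and copies aside, at an adjusted p under 0.05 with limma (0% in each direction), on deposited TPM or after median-of-ratios scaling. At an unadjusted p under 0.05, 9 genes rose and 1698 fell on deposited TPM. The genes around the copies gave shares close to those of all genes. Of 136 genes tested within 20 Mb of the chromosome 1 cluster, 49.3% were related to the mt-Nd level, 58.1% to the mt-Co1 share and 88.2% to the Gm28437 level, where 47.9%, 56.8% and 88.4% of all genes were.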

How the data were processed

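Prostate RNA, from the ventral lobe where the organ was small, was depleted of ribosomal RNA with Ribo-Zero GOLD and sequenced as 126-base read pairs. Per the labels and the study's methods, the authors trimmed reads, used Bowtie2 2.2.5 to map them to transcripts of both parental alleles (C57BL/6 and WSB) on GRCm38, and quantified genes with RSEM 1.2.20. The annotation release is not given in the sources used here. The authors deposited TPM for 115 libraries, scaled to the same total in each. TPM keeps no depth, so counting error is unknown, and no count model was used. The table holds more libraries than the study's methods count, and which of them the study used is not given in the sources used here, so all were used.

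The members and all gene lists were chosen with earlier results of these data known. Names and positions came from GENCODE M21, which held 45136 of 45699 genes. Copies were found with BLAST+ 2.17.0, and chromosome 18 was left out of that search. Parts of 79 and 36 libraries came from a mixture of 2 normals on the first principal component (14623 genes, 48.7% of variance), and were not compared with each other. Slopes were fitted with limma 3.58.1 (R 4.3.3) on log2(TPM + 1), for genes whose mean was 1 TPM or more, with Benjamini-Hochberg adjustment over all genes tested. A slope is the log2 change per doubling of the level. Median-of-ratios scaling divided each library by its median ratio to the gene-wise geometric mean. Correlations were tested by 100000 two-sided permutations, adjusted over 42 relations. Genes were named by rule: the mitochondrial genes and copies, the 10 with the largest t in each fit and up to 3 per list; other named genes were chosen after their values were seen. Some genes that meet the rule are not reported here. The muscle, adipocyte and ribosomal protein lists and the Gm28437 fit were also added then. Alternatives were another pseudocount, no filter, other scalings, 3 principal components as covariates, other copy and off thresholds, the smaller part and leaving out libraries. On simulated data with 13414 genes, the fit recovered 84 of 100 small and 100 of 100 large slopes and called 7 other genes. The simulated noise was independent between genes, and the slopes were set by the SD of each gene. Real genes share the scaling of their libraries, so the 7 calls do not measure false calls in these fits. The other software was scikit-learn 1.9.0, pandas 2.3.3, matplotlib 3.10.9, numpy 2.4.6 and scipy 1.17.1 under Python 3.11.15. Each library has its own number in its title and was taken as a separate mouse, and p-values measure the spread between libraries.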

Additional observations from a re-analysis of the deposited data

How the results depend on the processing

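No paired analysis was possible because all samples carry the same group label. TPM holds no depth, so whether a gene at 0 had reads cannot be told from these values. The division of identical sequence between gene and copy was made by the authors' quantification and was not redone. By TPM times length the nuclear share of mt-Co1 was 12.5%. With a pseudocount of 0.1 the SD of mt-Co2 alone was 3.27 and of mt-Co3 alone 3.71. The mt-Nd level was related to 33.2% of genes (12141) with no filter on low values and to 30.4% with 3 principal components as covariates, where 2042 rose and 2028 fell. The share of calls that rose was 98.4% on deposited TPM, 36.4% after median-of-ratios scaling (5094 calls), 82.8% after rescaling without the 20 largest genes, 44.5% in the smaller part and 50.2% with 3 principal components. The mt-Co1 share was related to 0.0148% of genes (2) after median-of-ratios scaling, 17.5% (2975) after rescaling without the 20 largest genes, 0.00646% (1) in the smaller part, 0.00747% (1) with 3 principal components, 25.4% (3396) without W5003 and W1154, and 0% after median-of-ratios scaling in the smaller part or without those libraries. The Gm28437 level was related to 11.4% (1545, of which 74.6% rose) after median-of-ratios scaling, 8.13% (1384, 99.1%) without the 20 largest genes, 47.1% (7293, 82.7%) in the smaller part, 21.1% (2821, 31%) with 3 principal components, 20.7% (3027, 60.7%) with median-of-ratios scaling in the smaller part and 11.9% (1602, 68.7%) with it and without W4078 and W4426. Slopes turned in the smaller part for Plekhm1 (-0.027), Pdk2 (-0.32), Rbms2 (-0.15), Bcl9l (-0.0053), Gm28437 (-0.11) and mt-Co3 with its copy (-0.10) with the mt-Nd level, and for 2810013P06Rik (-0.057), Dpp4 (-0.28), Stradb (-0.050), Adck5 (-0.12), Pts (-0.038), Scnm1 (-0.054) and Rnf180 (-0.26) with the mt-Co1 share. The cause of these changes was not tested.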
